A study of Mus musculus with 22 samples.

Results

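*Cdh5*, *Pecam1* and *Vwf* are the genes by which endothelial cells are most often recognised, and their transcripts were followed here over every cell and section of a spatial data set of mouse embryos. They are 3 of the 998 genes in each of the 22 tables of counts, and were taken by name. The sections came from 2 embryos at embryonic day 10, 13 sections from 1 embryo labelled Knockout (*Nr4a1*-/-*Nr4a2*-/-) and 9 from 1 embryo labelled Wildtype (*Nr4a1*+/+*Nr4a2*+/+). The sections were 10 µm thick and ran through the aorta-gonad-mesonephros region, where blood stem cells arise from the wall of the dorsal aorta. Transcripts were counted in place by CosMx, in which barcoded probes for a fixed panel of genes are imaged in the tissue and assigned to segmented cells.

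Each of the 3 genes marks the vessel wall in its own way. *Cdh5* encodes VE-cadherin, the adhesion molecule of the junctions between endothelial cells. *Pecam1* encodes CD31, a further junction molecule of endothelium that is also carried by platelets and other blood cells. *Vwf* encodes von Willebrand factor, which is stored in endothelial cells and megakaryocytes and binds platelets to a damaged wall. Cells that turn from endothelium into blood in the embryo still carry some of these proteins for a time, and the 3 genes are often read together to recognise endothelium.

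The 22 sections held 37570 cells after cells with fewer than 10 transcripts or 10 genes were left out. A section held 169027 to 887896 transcripts. The median cell held 87 to 332 transcripts over the Knockout sections and 171 to 224 over the Wildtype sections. All sections of a genotype came from the same embryo, so p-values below measure the spread between sections and compare 2 embryos, and any difference between embryos, slides and genotypes cannot be told apart. *Nr4a1*, 1 of the targeted genes, was at 1.74 to 2.65 transcripts per 10000 in the Knockout sections and at 2.29 to 3.20 in the Wildtype sections. *Nr4a2* was at 3.08 to 5.09 and 3.37 to 6.13. Neither was called between the embryos (edgeR's quasi-likelihood test, adjusted p = 0.716 and 0.860). The mean of the dimmest 5% of panel genes was 2.29 in the Knockout and 2.77 in the Wildtype embryo, so *Nr4a1* was too dim to check the labels. *Nr4a2* lay above that mean in every Knockout section, as most panel genes do, and was not called lower there. Its Knockout mean of 4.17 lay under the panel median of 5.22. With the total count alone, both genes were called lower in the Knockout sections (log2 difference -0.31 and -0.23, edgeR's adjusted p = 0.00110 and 0.0325). On that scale 72% of all genes were called lower. Where the probes of *Nr4a2* lie is not given in the sources used here, so it could not check the labels either. The study's text gives other numbers of sections per genotype than the labels do, and Knockout and Wildtype stand throughout for sections so labelled.

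*Cdh5* was detected in every section of both embryos. Over the 13 Knockout sections its lowest level was 6.57, its median 16.5 and its highest 20.1 transcripts per 10000 transcripts of the section. Over the 9 Wildtype sections the lowest was 12.9, the median 16.6 and the highest 21.1. The groups overlapped over nearly their whole range, apart from the lowest Knockout section (replicate 13), which lay under all other sections. *Pecam1* ranged from 5.25 to 8.53 with a median of 6.41 in the Knockout sections, and from 5.70 to 8.54 with a median of 7.19 in the Wildtype sections. *Vwf* ranged from 4.79 to 8.32 with a median of 6.74 in the Knockout sections, and from 6.86 to 10.7 with a median of 8.42 in the Wildtype sections. In *Vwf*, 5 of the 9 Wildtype sections lay above all Knockout sections, and the groups shared the span from 6.86 to 8.32.

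**Figure D1:**
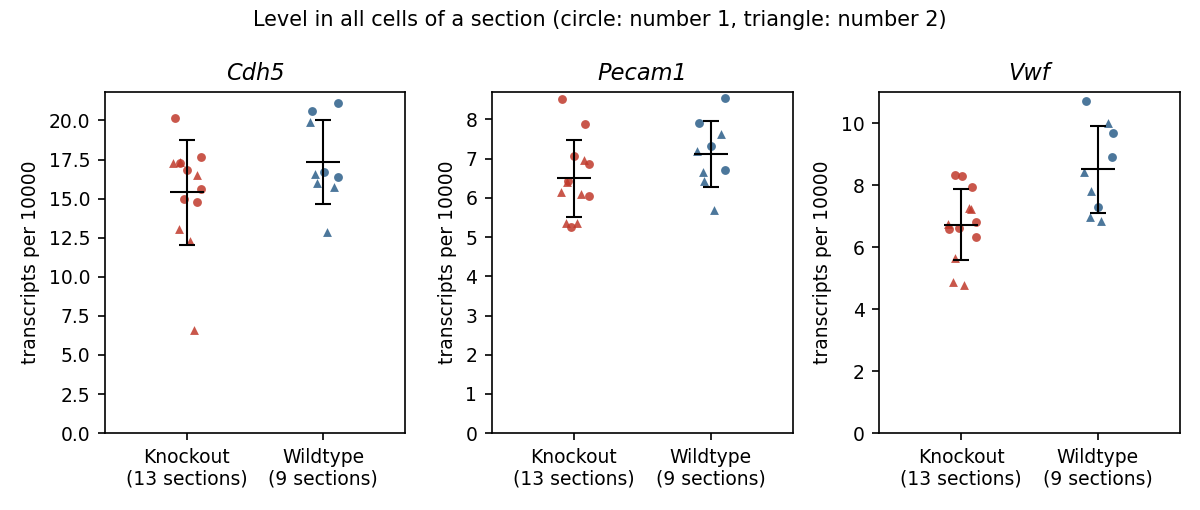
Level of *Cdh5*, *Pecam1* and *Vwf* in all cells of each section, in transcripts per 10000 (1 point per section, circles and triangles for sections numbered 1 and 2, bars for the mean and SD). The Knockout and Wildtype sections overlap for each gene, and the lowest *Cdh5* point, at 6.57, is a Knockout section.

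None of the 3 genes was called between the embryos in all cells, beside 12.5% of the 998 genes tested by edgeR, of which 98 (9.82% of all) were higher and 27 (2.71%) lower in the Knockout sections. The p-values of the quasi-likelihood test were adjusted over all genes by the method of Benjamini and Hochberg. *Cdh5* differed by 0.11 on the log2 scale (SE 0.13, adjusted p = 0.622), *Pecam1* by 0.13 (SE 0.085, adjusted p = 0.330) and *Vwf* by -0.075 (SE 0.091, adjusted p = 0.622), Knockout over Wildtype. These values depended on the scaling. With TMM factors, which set the middle of the panel near 0, the median gene differed by -0.034, and with the total count alone by -0.30. On the latter scale *Cdh5* was at -0.16, *Pecam1* at -0.14 and *Vwf* at -0.34 (adjusted p = 0.00389, called lower), where 719 of 998 genes (72%) were called lower and 58 (5.81%) higher.

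The share of cells with each gene was compared at 1 depth, by thinning each cell to 100 transcripts at random and leaving out shallower cells, which kept 14251 Knockout and 11312 Wildtype cells. *Cdh5* was found in 5.63% to 12.7% of thinned cells over the Knockout sections (median 10.7%) and in 10.5% to 14.6% over the Wildtype sections (median 12.5%). The mean share was lower by 1.81 percentage points in the Knockout sections (two-sided exact permutation test over sections, p = 0.0191, adjusted over the 3 genes 0.0286). *Pecam1* was found in 5.43% ± 0.810 of cells (SD, n = 13) and 6.33% ± 0.765 (SD, n = 9), a difference of -0.904 points (same exact permutation test, p = 0.0169, adjusted 0.0286). *Vwf* was found in 5.98% ± 1.03 and 6.75% ± 0.963, a difference of -0.769 points (same exact permutation test, p = 0.0920, adjusted 0.0920). Such shares are relative to all transcripts of a cell, and so follow the total-count scale above, on which the median gene was also lower. Without Wildtype replicate 2, 3 or 8 the adjusted p of *Cdh5* and of *Pecam1* rose to between 0.0567 and 0.0714, while without Wildtype replicate 1 or 9 that of *Vwf* fell to 0.0479 or 0.0351. The call of *Cdh5* was also lost at 150 transcripts per cell, without thinning and within sections numbered 1 or 2 by their table names (exact permutation adjusted p = 0.0918, 0.0686, 0.0727 and 0.201), and that of *Pecam1* at 150 transcripts, without thinning and within sections numbered 2 (adjusted p = 0.0918, 0.144 and 0.429). Before thinning, *Cdh5* was seen in 18.02% ± 3.99 of Knockout and 21.01% ± 1.94 of Wildtype cells, *Pecam1* in 11.7% ± 2.23 and 12.9% ± 1.06, and *Vwf* in 12.2% ± 2.59 and 14.3% ± 1.36. The median panel gene was also lower, seen in 10.1% of all Knockout and 12.1% of all Wildtype cells. Thinned shares of the other panel genes were not tested, so the calls above are not set apart from the panel.

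The names of the deposited tables number the sections of each embryo 1 or 2, and what the number stands for is not given in the sources used here. All 3 genes were lower on average in sections numbered 2, in both embryos, but no difference passed the test. The mean of *Vwf* in the Knockout embryo was 7.28 in the 7 sections numbered 1 and 6.09 in the 6 numbered 2 (two-sided exact permutation test, p = 0.0559, adjusted over 6 comparisons 0.175). The other 5 comparisons had an adjusted p of 0.175 to 0.222 by the same exact test.

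To ask how far the 3 genes pick out 1 kind of cell, cells were grouped without them. A negative binomial mixture was fitted to each embryo on the other 995 panel genes, with more clusters until 1 was at least 2-fold above the other cells in most of 12 other endothelial genes (*Tie1*, *Tek*, *Kdr*, *Flt1*, *Eng*, *Esam*, *Clec14a*, *Ramp2*, *Icam2*, *Adgrl4*, *Calcrl*, *Acvrl1*), which include the angiopoietin and VEGF receptors of vessels, and 1 was hematopoietic-like. This took 6 clusters in the Knockout embryo, where 9 of the 12 genes were 2-fold up, and 10 in the Wildtype embryo, with 8 of 12. With another random start no number from 5 to 12 met the rule in the Wildtype embryo, nor did 1 mixture of both embryos. The cluster highest in these genes was then used in its place, with 4 of 12 genes 2-fold up and 7.36% of Wildtype cells with the other start (7.58% with 6 clusters), against 4.60% here, and with 6 of 12 in the joint mixture. The endothelial-like cluster held 1412 of 21191 Knockout cells and 753 of 16379 Wildtype cells, and its size was not compared between embryos.

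*Cdh5*, held out of the grouping, had the highest ratio of endothelial-like to other cells of all 998 genes in both embryos. It was at 82.1 ± 18.98 transcripts per 10000 in endothelial-like cells and 9.59 ± 2.51 in all other cells of the Knockout sections (SD, n = 13). In the Wildtype sections it was at 76.5 ± 19.2 and 12.86 ± 1.197 (SD, n = 9). *Pecam1* ranked 8 of 998 by this ratio in the Knockout and 6 in the Wildtype embryo, with 19.6 ± 4.40 against 5.31 ± 0.900 and 21.1 ± 5.92 against 6.08 ± 0.520 transcripts per 10000. *Vwf* ranked 13 and 5, with 16.1 ± 5.37 against 5.87 ± 1.03 and 25.7 ± 10.1 against 7.17 ± 0.639. All 3 genes were thus enriched in the same cells, *Cdh5* by the widest margin. With a gate on the 12 genes in place of clusters (cells with at least 4 of their transcripts), the mean log2 ratio of *Cdh5* fell to 1.44 in the Knockout and 0.96 in the Wildtype embryo, from 3.13 and 2.54.

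Most transcripts of each gene nevertheless lay outside these cells. Endothelial-like cells made up 6.44% of the cells of a Knockout section on average and held 43.4% ± 8.65 of its *Cdh5*, 24.9% ± 7.50 of its *Pecam1* and 19.6% ± 7.31 of its *Vwf* transcripts (SD, n = 13). In a Wildtype section they made up 5.04% of cells and held 30.2% ± 7.49, 20.1% ± 6.13 and 20.7% ± 8.45 (SD, n = 9). After thinning to 100 transcripts, *Cdh5* was seen in 47.3% of endothelial-like cells of the Knockout embryo and in 11.002% of a cluster led by *Col1a1*, *Lum* and *Acta2*, a collagen, a matrix proteoglycan and smooth muscle actin. *Pecam1* was seen in 16.2% and 4.52% of them, and *Vwf* in 13.5% and 6.03%. The Wildtype endothelial-like cells gave 45.4%, 19.1% and 18.4%, a cluster led by *Col1a1*, *Lum* and *Acta2* 14.8%, 4.74% and 5.84%, and a cluster led by the muscle genes *Tpm2* and *Ttn* 3.28%, 2.73% and 4.64%. Muscle and connective tissue cells should lack all 3 genes, and the source of the transcripts in these clusters was not tested. The median total count before thinning was 280 and 326 in endothelial-like cells of the Knockout and Wildtype embryo and 334, 278 and 255 in these clusters.

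Across clusters, the endothelial-like one lay above the next for each gene in both embryos. In the Knockout embryo the next was hematopoietic-like, where *Cdh5* was lower by 67.8 transcripts per 10000 (endothelial-like cells higher in 13 of 13 sections), *Pecam1* by 11.6 (13 of 13) and *Vwf* by 7.99 (12 of 13). By the two-sided exact sign-flip permutation test over sections, these had adjusted p = 0.000916, 0.000916 and 0.00220. The hematopoietic-like cluster and the one led by *Col1a1* did not differ beyond their spread in *Cdh5* (14.4 ± 5.89 and 13.7 ± 6.04, exact sign-flip adjusted p = 0.768) or in *Vwf* (8.11 ± 2.36 and 7.57 ± 2.24, adjusted p = 0.608). *Pecam1* in hematopoietic-like cells, 7.998 ± 3.94, did not pass the test against its next neighbour, an unnamed cluster at 6.27 ± 1.03 (exact sign-flip adjusted p = 0.137). The lowest level of each gene was in an unnamed cluster of shallow cells, with a median of 59 transcripts.

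In the Wildtype embryo the second cluster for each gene was an unnamed group of 636 cells led by *Hba-a1/2*, *Thbs1*, *Mt1*, *Pf4*, *Mt2*, *Cd34* and *Cdh5*, of which *Pf4* is a platelet and megakaryocyte gene. None of the 12 endothelial genes was 2-fold up there. *Cdh5* was at 39.2 ± 8.47 in it, *Pecam1* at 10.9 ± 4.97 and *Vwf* at 13.8 ± 5.83 transcripts per 10000 (SD, n = 9). The endothelial-like cluster exceeded it in *Cdh5* by 37.3 (9 of 9 sections), in *Pecam1* by 10.1 (9 of 9) and in *Vwf* by 11.9 (8 of 9), with adjusted p = 0.0264, 0.0264 and 0.0301 by the exact sign-flip permutation test. This group in turn exceeded the next cluster, led by *Col1a1*, in *Cdh5* by 20.6 (8 of 8 sections, exact sign-flip adjusted p = 0.0301). For *Pecam1* and *Vwf* its lead over the next cluster did not pass the test (exact sign-flip adjusted p = 0.404 and 0.384). Next came the cluster led by *Col1a1* and one led by *Twist1*, at 20.2 and 18.95, which did not differ beyond their spread (exact sign-flip adjusted p = 0.600). Below these, *Cdh5* lay between 10.1 and 12.2 in 5 clusters, the hematopoietic-like one among them, and no 2 neighbours of these differed beyond their spread.

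**Figure D2:**
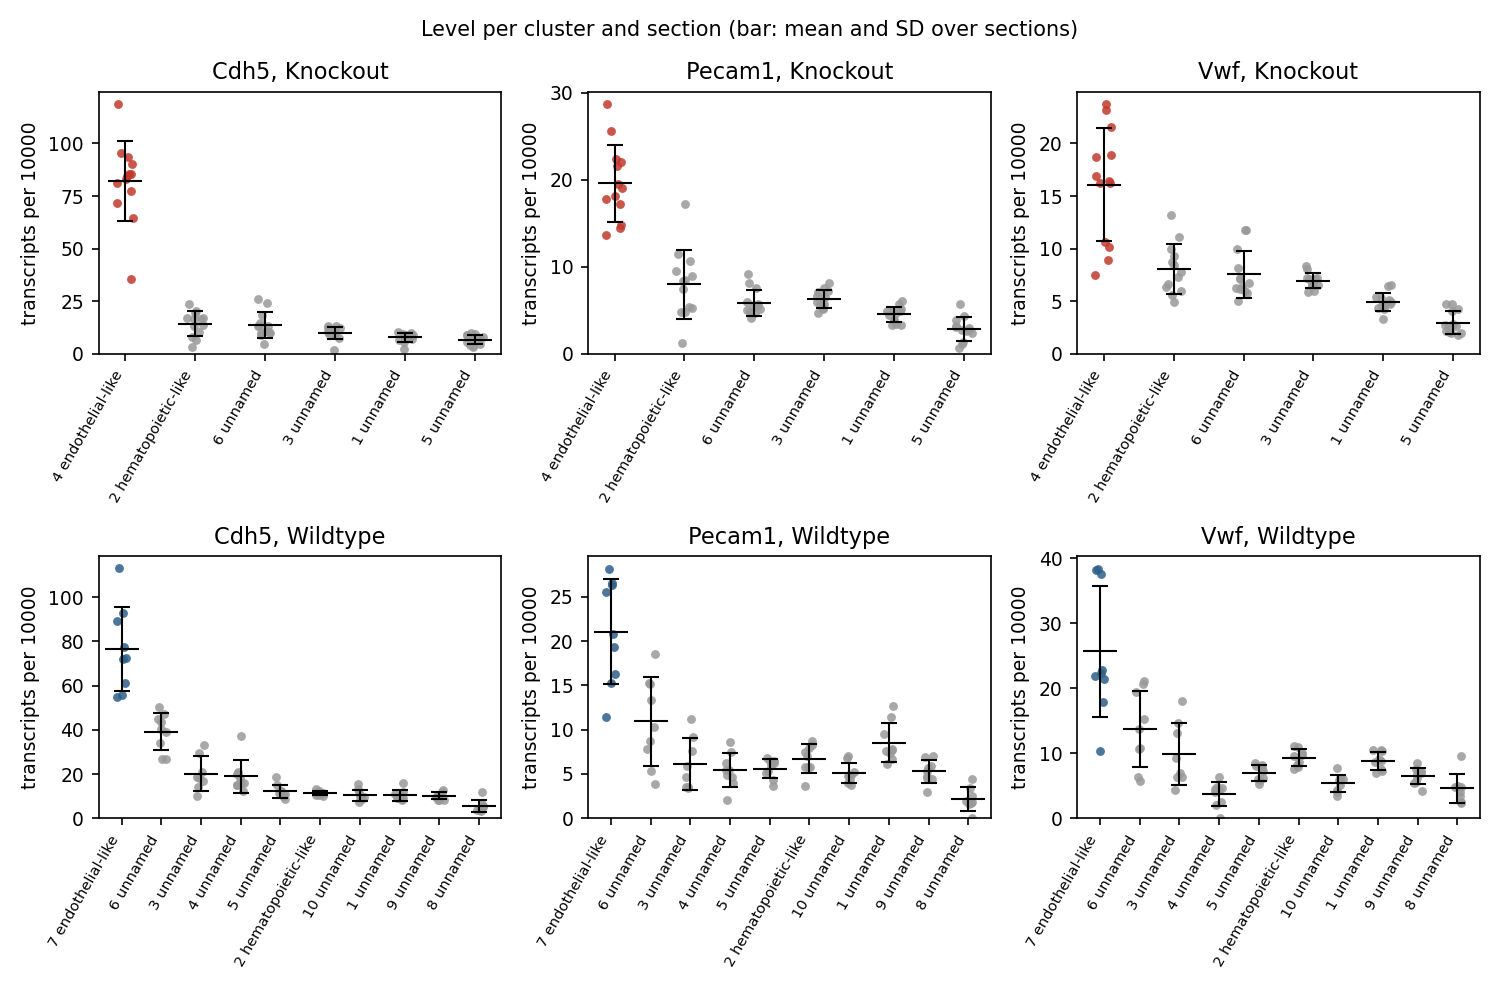
Level of each gene per cluster in transcripts per 10000 (1 point per section with at least 10 cells of the cluster, bars for the mean and SD over sections), with clusters of an embryo ordered by *Cdh5* and grouped without the 3 genes. The endothelial-like cluster, coloured, is highest in all 6 panels, with *Cdh5* at 82.1 in the Knockout and 76.5 in the Wildtype embryo.

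Within endothelial-like cells none of the 3 genes was called between the embryos, beside 11.7% of the 905 genes tested, 8.62% higher and 3.09% lower in the Knockout sections. *Cdh5* ranged from 35.7 to 119 over the Knockout sections (median 84.7) and from 54.9 to 113 over the Wildtype sections (median 72.3), and differed by 0.33 on the log2 scale (SE 0.13, edgeR's adjusted p = 0.0737). It passed the threshold with another random start of the mixture (0.42, adjusted p = 0.0219) and with 6 clusters in both embryos (0.44, adjusted p = 0.00942), where the Wildtype cluster did not meet the naming rule, and without Knockout replicate 13, Wildtype replicate 1 or Wildtype replicate 2 (adjusted p = 0.00823, 0.0479 and 0.0150), while it was at 0.10 with the total count alone and 0.21 with 1 mixture for both embryos (edgeR's adjusted p = 0.519 and 0.525). *Pecam1* ranged from 13.7 to 28.7 and from 11.5 to 28.2, and differed by 0.11 (SE 0.14, edgeR's adjusted p = 0.670), and by -0.12 with the total count alone (adjusted p = 0.465). *Vwf* ranged from 7.47 to 23.8 (median 16.4) and from 10.3 to 38.4 (median 22.4), and differed by -0.46 (SE 0.22, edgeR's adjusted p = 0.197). Without Wildtype replicate 9, whose *Vwf* was the lowest of the Wildtype sections, the difference was -0.55 and the adjusted p 0.0339, and with the total count alone -0.69 and 0.0201. On that last scale 283 of 905 genes were called lower, and the median gene was at -0.32. The difference was -0.20 with another random start, -0.19 with 6 clusters and -0.075 with the broader gate on the 12 genes (edgeR's adjusted p = 0.630, 0.690 and 0.752).

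The contrast between endothelial-like and other cells did differ between the embryos for *Cdh5*. Its log2 ratio ran from 2.55 to 3.64 over the Knockout sections (median 3.18, mean 8.73-fold) and from 2.16 to 3.001 over the Wildtype sections (median 2.47, mean 5.82-fold). The difference of 0.58 passed the two-sided exact permutation test over sections (p = 0.000392, adjusted over the 3 genes 0.00118). *Pecam1* differed by 0.13 (exact permutation adjusted p = 0.415) and *Vwf* by -0.35 (exact permutation adjusted p = 0.193). With the gate, whose cells lay mostly outside the cluster, *Pecam1* differed by 0.24 and passed (exact permutation adjusted p = 0.0479). *Vwf* was at 0.022 with the gate, -0.043 with 6 clusters and -0.013 with another random start (exact permutation adjusted p = 0.875, 0.845 and 0.946). The difference for *Cdh5* was 0.47 with the gate on the 12 genes, 0.39 with 1 mixture for both embryos, 0.63 with 6 clusters in both and 0.64 with another random start (exact permutation adjusted p = 0.00159, 0.0121, 0.000555 and 0.000537). A higher ratio in the Knockout embryo was not particular to *Cdh5*. Over pooled cells it was also higher there for all of the 12 other endothelial genes except *Calcrl* and *Clec14a*. *Kdr* was at 4.55-fold against 2.86-fold in the Wildtype embryo, and *Ramp2* at 4.65-fold against 2.79-fold. The 12 genes took part in the grouping, and their ratios were not tested. The level in endothelial-like cells, 82.1 and 76.5 transcripts per 10000, was not called between the embryos, and that in other cells was 9.59 in the Knockout and 12.9 in the Wildtype sections, a difference that was not tested by itself. These rates follow the total-count scale, on which the median gene of all cells differed by -0.30. Other cells of the Wildtype embryo also include the unnamed group with *Cdh5* at 39.2. Of 4 hematopoietic and 4 smooth muscle markers, none was 2-fold up in endothelial-like cells of either embryo, while of 5 sclerotome markers *Foxc2* was 2-fold up in those of the Wildtype embryo. The median of the smooth muscle markers was 1.25-fold that of other cells in the Knockout and 1.61-fold in the Wildtype embryo, and that of the hematopoietic markers 0.971-fold and 0.865-fold. The hemoglobin gene *Hba-a1/2* was at a mean of 257 transcripts per 10000 in endothelial-like and 208 in other cells of the Knockout sections, and at 266 and 190 in the Wildtype sections. *Hbb*, a further hemoglobin gene, was at 12.2 and 12.9 in the Knockout and at 15.3 and 16.1 in the Wildtype sections. The part of these markers in the ratio was not tested.

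The link to other endothelial genes was graded. In cells thinned to 100 transcripts, *Cdh5* was seen in 7.44% of Knockout cells with no transcript of the 12 other endothelial genes (498 of 6697, Wilson 95% interval 6.83% to 8.09%). With 1, 2 and 3 such transcripts the share was 10.1%, 13.9% and 24.4%, and with 4 or more it was 37.0% (183 of 495, 32.8% to 41.3%). In the Wildtype cells it went from 9.03% (8.23% to 9.89%) over 11.6%, 15.2% and 18.9% to 31.6% (27.6% to 35.8%). The share with *Cdh5* was thus higher at each step in both embryos. *Pecam1* went from 4.29% to 14.1% of Knockout cells and from 5.14% to 13.4% of Wildtype cells between none and 4 or more transcripts. *Vwf* went from 4.75% to 10.9% and from 5.69% to 10.4%, with values between 6.15% and 7.23% at 1 to 3 transcripts, whose intervals overlapped. These intervals cover counting error over pooled cells only.

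**Figure D3:**
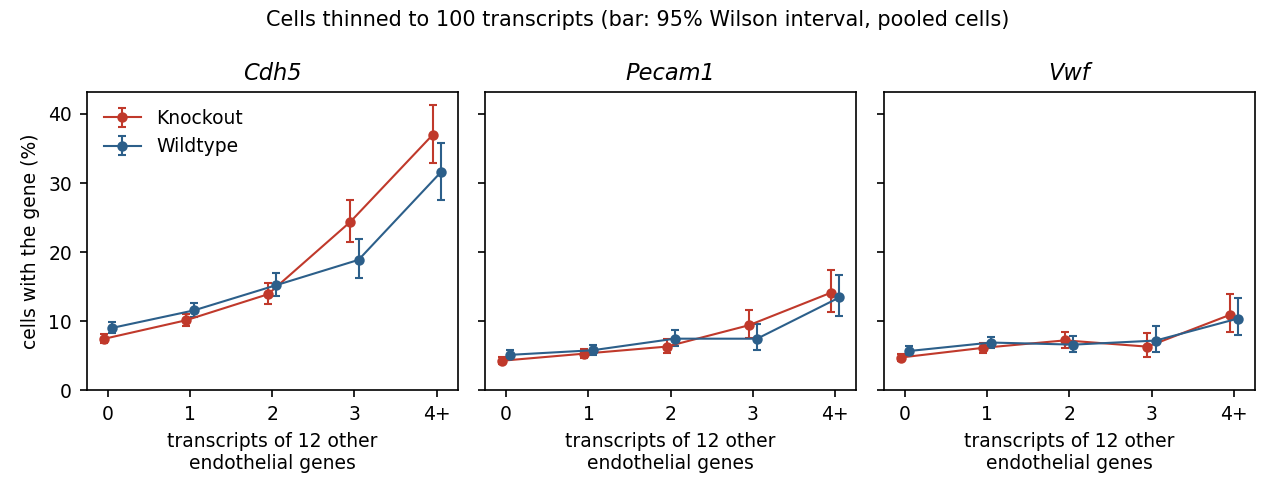
Percent of cells with each gene against the number of transcripts of 12 other endothelial genes in the same cell, all cells thinned to 100 transcripts (points: pooled cells of an embryo, bars: 95% Wilson intervals for counting error). *Cdh5* climbs from 7.44% to 37.0% in the Knockout and from 9.03% to 31.6% in the Wildtype cells, and *Vwf* from 4.75% to 10.9% and from 5.69% to 10.4%.

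Detection was mostly by single transcripts. Of the 3867 Knockout and 3386 Wildtype cells with *Cdh5*, 51.9% and 53.6% held 1 transcript, and 10.8% and 9.60% held 5 or more, up to 20 and 23 in a cell. Of the cells with *Pecam1*, 70.0% and 70.9% held 1 transcript, and of those with *Vwf*, 71.02% and 66.9%. The highest counts in a cell were 15 and 10 for *Pecam1* and 14 and 16 for *Vwf*.

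All 3 transcripts were found together in 370 of 21191 Knockout cells (1.75%) and 337 of 16379 Wildtype cells (2.06%), at 8 to 63 cells per section. Of these cells, 45.7% and 44.8% were in the endothelial-like cluster. Of cells with *Cdh5* alone 16.3% and 8.46% were in it, of those with *Pecam1* alone 4.54% and 3.41%, and of those with *Vwf* alone 3.17% and 2.01%. Cells with none of the 3 genes were in it at 2.53% and 1.46%. Cells with *Pecam1* and *Vwf* but no *Cdh5* were in it at 2.52% and 3.85%, from 7 of 278 and 9 of 234 cells. The summed rate of the 12 other endothelial genes was highest in cells with all 3 genes, with 169 and 180 transcripts per 10000, against 107 and 115 with *Cdh5* alone, 78.7 and 95.1 with *Vwf* alone, and 73.2 and 90.5 with none. The median total count was also higher in such cells, at 580.5 and 567 transcripts with all 3 genes against 329 and 310 with *Cdh5* alone, and its part in these shares was not tested.

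Co-detection was therefore set against the number of cells expected from each gene's share among cells of like total count (10 bins per section). *Cdh5* and *Pecam1* were found together in 2027 cells where 1436 were expected, 1.41-fold, and above expectation in 22 of 22 sections. *Cdh5* and *Vwf* shared 1842 cells against 1510 (1.22-fold, 22 of 22 sections), and *Pecam1* and *Vwf* 1219 against 1034 (1.18-fold, 21 of 22 sections). Over both embryos together, the pair with both junction genes thus had the largest excess of the 3 pairs. After thinning to 100 transcripts the ratios were 1.86, 1.70 and 1.38, from 328, 314 and 127 cells, and the third pair was above expectation in 12 of 22 sections. In thinned Wildtype cells alone the order turned, with 1.67 for *Cdh5* and *Vwf* against 1.62 for *Cdh5* and *Pecam1*.

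Between the embryos, the excess of *Cdh5* with *Pecam1* was 1.24 to 2.05-fold over the Knockout sections (median 1.48) and 1.203 to 1.51-fold over the Wildtype sections (median 1.32). The log2 difference of 0.16 did not pass after adjustment over the 3 pairs (two-sided exact permutation test, p = 0.0247, adjusted 0.0740). It passed with 5 bins (adjusted p = 0.0482), with thinned cells (0.35, adjusted p = 0.0280) and without Knockout replicate 4 or 8 or Wildtype replicate 1 or 8 (exact permutation adjusted p = 0.0252 to 0.0408). The difference for *Cdh5* with *Vwf* was -0.0086 (exact permutation adjusted p = 0.869) and for *Pecam1* with *Vwf* 0.11 (exact permutation adjusted p = 0.120). In thinned cells *Pecam1* with *Vwf* went the other way, with a mean log2 ratio of 0.078 in the Knockout and 0.39 in the Wildtype sections.

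Co-detection was also read inside and outside the endothelial-like cluster. Among endothelial-like cells (3 bins of total count per section), *Cdh5* and *Pecam1* met in 1.12 times the expected cells in the Knockout and 1.11 times in the Wildtype embryo, above 1 in 12 of 13 and 9 of 9 sections. Among all other cells the ratio was 1.295 and 1.27, above 1 in every section. Since *Cdh5* was detected in 66.8% and 70.8% of endothelial-like cells, a ratio with it cannot rise far above 1 there. The ratios inside and outside the cluster thus do not rank how closely the genes go together. For *Cdh5* and *Vwf* the ratio was 1.09 (11 of 13 sections) and 1.12 (7 of 9) in endothelial-like cells, and 1.10 (9 of 13) and 1.12 (9 of 9) in other cells. *Pecam1* and *Vwf* met in 1.05 times the expected number of endothelial-like cells in the Knockout (6 of 13 sections) and 1.11 times in the Wildtype embryo (7 of 9). They met in 1.19 times the expected number of other cells in the Knockout embryo (13 of 13 sections) and 1.02 times in the Wildtype embryo (7 of 9 sections), and neither difference between embryos was tested. An excess of *Cdh5* with *Pecam1* was thus present in cells outside the endothelial-like cluster of this grouping. In the Wildtype embryo these include the unnamed group of 636 cells with *Cdh5* at 39.2. Another start or 6 clusters placed more Wildtype cells in the cluster (7.36% and 7.58% against 4.60%).

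**Figure D4:**
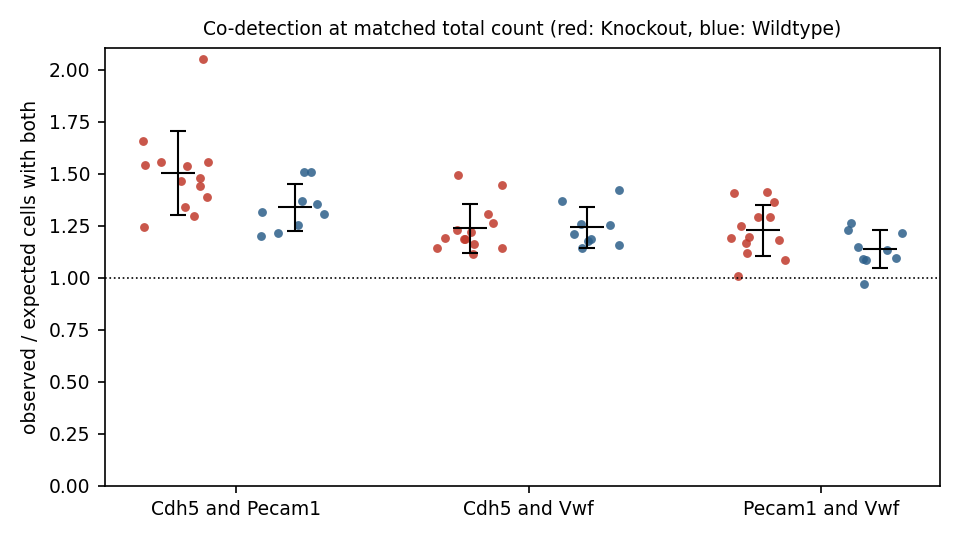
Observed over expected number of cells with both genes of a pair, per section, at matched total count (red: Knockout, blue: Wildtype, bars for the mean and SD, dotted line at 1). The pair *Cdh5* and *Pecam1* lies between 1.203 and 2.05 in all 22 sections, and 1 Wildtype section of *Pecam1* and *Vwf* lies under 1.

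The panel genes most correlated with each gene over single cells were named as a description, from counts thinned to 100 transcripts, within each section and averaged over the 22 sections (25563 cells in all, thinned to the same depth, with the cells of a section sharing a slide). For *Cdh5* they were *Col4a1* (mean r = 0.249, SD 0.0596), *Col4a2* (0.185), *Col18a1* (0.146), *Cd34* (0.141) and *Kdr* (0.121). The first 3 encode collagens of basement membranes, *Cd34* a surface protein of endothelium and blood progenitors, and *Kdr* the VEGF receptor 2. The correlation with *Col4a1* was above 0 in 22 of 22 sections, between 0.146 and 0.340. The median panel gene had r = -0.00456, and 21 of 997 genes were above 0.05.

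*Pecam1* and *Vwf* both had *Cdh5* first over all 22 sections, though *Col4a1* was first and *Cdh5* second for *Pecam1* over the Wildtype sections and at 50 transcripts, and *Col4a1* first and *Cdh5* at rank 3 for *Vwf* over the Knockout sections. For *Pecam1* the order was *Cdh5* (mean r = 0.0853, above 0 in 22 of 22 sections), *Col4a2* (0.0839), *Col4a1* (0.0759), *Cd34* (0.0471) and *Kdr* (0.0458). For *Vwf* it was *Cdh5* (0.0756, 20 of 22 sections), *Col4a1* (0.0738), *Col18a1* (0.0630), *Col4a2* (0.0576) and *Thbs1* (0.0506, 17 of 22 sections), which encodes thrombospondin 1, a protein of platelets and of the vessel wall. *Pecam1* and *Vwf* had a mean r of 0.0304 with each other, between -0.0376 and 0.139 over sections. Correlations of this size in sparse counts only give an order. With Pearson residuals of all counts, the same 5 genes led for *Cdh5*, and 4 of the 5 for *Pecam1* and for *Vwf*. With cells thinned to 50 transcripts 5, 4 and 2 of the 5 remained, and *Thbs1* was at rank 74 for *Vwf*. Over the Knockout sections alone 5, 5 and 4 of the 5 remained, and over the Wildtype sections 4, 3 and 4, where *Cd34* was at rank 54 for *Pecam1*.

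**Figure D5:**
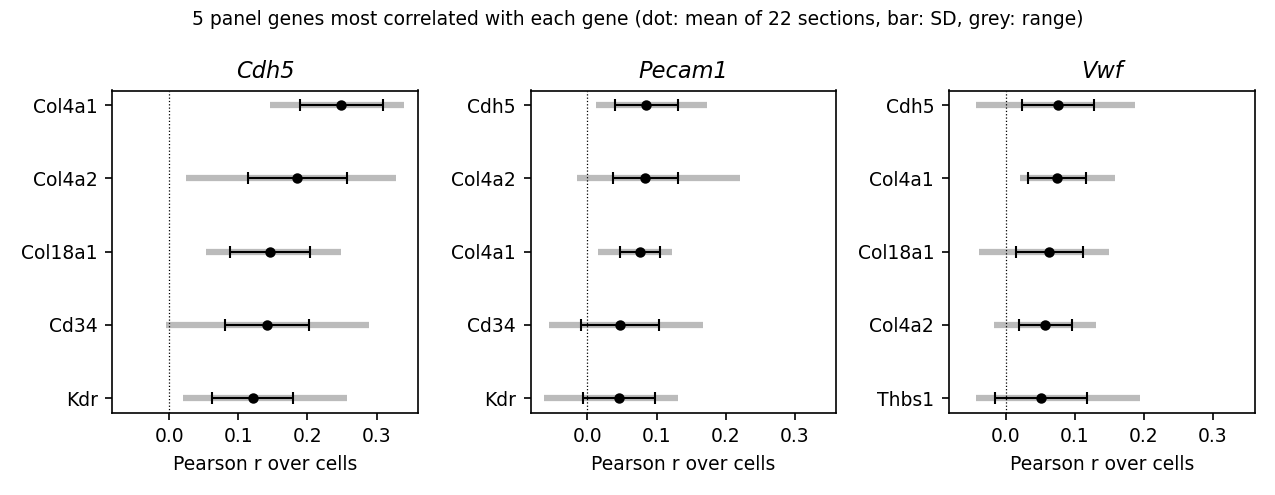
The 5 panel genes with the highest mean Pearson correlation with each gene over single cells thinned to 100 transcripts (dot: mean over 22 sections, black bar: SD, grey bar: lowest to highest section, dotted line at 0). *Col4a1* leads for *Cdh5* at 0.249, and *Cdh5* leads for *Pecam1* at 0.0853 and for *Vwf* at 0.0756.

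Co-detection with every panel gene, at matched total count, set the 3 genes apart from each other. Of the 12 other endothelial genes, 11 were above the 95th percentile of the panel for *Cdh5* (median ratio 1.23, panel median 0.998), 9 for *Pecam1* (1.17, panel 1.02) and 4 for *Vwf* (1.12, panel 1.02). *Cd34* had the highest ratio with *Cdh5* of all other genes (1.59, 2028 cells) and with *Pecam1* (1.44, 1250 cells). *Pecam1* ranked second for *Cdh5*, and *Cdh5* second for *Pecam1*. *Cdh5* ranked 7 of 997 for *Vwf*, and *Pecam1* ranked 31. *Ramp2*, a co-receptor for adrenomedullin, and *Tie1*, an endothelial receptor kinase, had ratios of 1.41 and 1.37 with *Cdh5* and of 1.35 and 1.2996 with *Pecam1*. With *Vwf* their ratios were 1.16 and 1.18.

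The other genes of the vessel wall and of blood progenitors are given by their counts. In all cells, none of the 12 other endothelial genes was called between the embryos by edgeR (median log2 difference 0.059, 4 at an unadjusted p under 0.05), beside a median of -0.034 over all genes. None of 6 arterial genes (*Dll4*, *Hey1*, *Hey2*, *Efnb2*, *Notch1*, *Jag1*, median 0.0044, 0 at an unadjusted p under 0.05) and not the venous gene *Ephb4* (0.078) was called. DESeq2 called none of the 3 main genes either (adjusted p = 0.601, 0.275 and 0.647). Of 5 hematopoietic progenitor genes, 1 was called lower in the Knockout sections, beside 2.71% of all genes. This was *Gata2*, a transcription factor of blood progenitors and endothelium, at 4.56 ± 0.711 against 6.75 ± 0.985 transcripts per 10000 (log2 difference -0.28, SE 0.077, edgeR's adjusted p = 0.0118). With the total count alone, where 72% of all genes were called lower, 8 of the 12 endothelial genes, 3 of the 6 arterial genes, *Ephb4* and 5 of the 5 progenitor genes were called lower.

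In endothelial-like cells, 2 of the 12 other endothelial genes were called higher in the Knockout sections and none lower, beside 8.62% and 3.09% of all genes tested (median 0.18, all genes -0.073). *Kdr* was at 32.5 against 25.5 transcripts per 10000 (log2 difference 0.59, SE 0.13, edgeR's adjusted p = 0.000186) and *Ramp2* at 25.9 against 18.4 (0.73, SE 0.13, adjusted p = 1.96e-06). Both took part in grouping the cells, separately in each embryo, so that these 2 values describe the groups. None of the 6 arterial genes (median -0.047) and not *Ephb4* (0.20) was called, while with the total count alone 2 of the 6 arterial genes were called lower (median -0.29), among 283 of all genes, and *Ephb4* was at -0.044. *Gfi1*, which represses endothelial genes in cells that become blood, was the 1 of 5 progenitor genes called, lower at 5.22 against 8.68 (-0.54, SE 0.18, edgeR's adjusted p = 0.0348). It too took part in the grouping, so that its value also describes the groups. In all cells *Gfi1* was at 4.81 against 6.69 and not called (-0.20, edgeR's adjusted p = 0.241). With 1 mixture for both embryos, 1 of 911 genes was called lower.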

How the data were processed

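CosMx transcripts were measured in 22 sections. The authors fixed fresh frozen sections, hybridised the probes and made the tables with AtoMx, and the deposited values are whole-number counts of transcripts per gene and cell, not normalised. The labels name a human panel and the methods a mouse one, and gene names were used as given. A genome build is not given in the sources used here. Groups follow the labels. Section totals ran from 169027 to 887896, and counts limit precision where few transcripts lie behind a value.

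The genes, lists and tests were chosen with earlier results of these data known. Cells with at least 10 transcripts and 10 genes were kept (5 of 37575 left out). Cell names repeated between sections (3410 over 231 pairs), so cells were kept apart by section, and no pair of sections had identical sums. Counts summed per section were fitted with edgeR 4.0.16 (TMM, filterByExpr, robust quasi-likelihood, Benjamini-Hochberg at 0.05) in R. Exact permutation tests were two-sided over all splits of sections. The mixture had size 10, a background from the dimmest 5% of genes, and the first number of clusters from 5 to 12 that met the naming rule in each embryo. A name needed most of a marker list at 2-fold (*Hbb*, *Csf2rb*, *Epor* and *Cd3e* for hematopoietic-like, *Tagln*, *Acta2*, *Myh11* and *Myl9* for smooth-muscle-like). Clusters that met the smooth muscle list were left unnamed, since collagen or striated muscle genes led them. Lists for sclerotome, epithelium and macrophages named no cluster. No doublet caller was run, since segmented cells are not droplets. Sections with fewer than 10 cells of a cluster were left out of its values. Scripts were tested on simulated data. Named genes were the 3 genes, the 5 most correlated with each, called genes of the lists and the targeted genes. Partners by co-detection ratio and leading genes of clusters were named after their values were seen. Alternatives were other scaling, DESeq2 1.42.0, no gene filter, other cell filters, depths, bins and groupings, sections numbered 1 or 2, and each section left out. 6 clusters in both embryos, and the test of the ratio between embryos, were added after the data were seen.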

Additional observations from a re-analysis of the deposited data

Results flagged for a closer look

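The ratio of *Cdh5* in endothelial-like cells to that in all other cells differed between the embryos, by 0.58 on the log2 scale (two-sided exact permutation test over sections, adjusted p = 0.00118), with a mean of 3.13 ± 0.31 in the Knockout (SD, n = 13) and 2.54 ± 0.29 in the Wildtype sections (SD, n = 9). The cells were grouped separately in each embryo, with 6 and 10 clusters, and the part of this in the difference was not tested beyond the other groupings given above. Embryo, slide and genotype cannot be told apart.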

How the results depend on the processing

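Of 150 values under other settings, 110 kept their direction and side of the threshold or their size, and of 352 values with 1 section left out, 329 did. The cause of the changes below was not tested. With the total count alone, the log2 differences in all cells were -0.16 for *Cdh5*, -0.14 for *Pecam1* and -0.34 for *Vwf*, and in endothelial-like cells 0.10, -0.12 and -0.69. It called 58 genes higher and 719 lower in all cells, and 283 lower in endothelial-like cells. In endothelial-like cells *Cdh5* was at 0.42 with another random start, 0.44 with 6 clusters in both embryos and 0.21 with 1 mixture for both. DESeq2 called 43 genes lower in all cells. Sections numbered 1 gave 44 higher and 11 lower in all cells and 47 and 9 in endothelial-like cells, sections numbered 2 gave 4 and 12 lower, and 1 mixture for both embryos 27 higher and 1 lower. The difference in the share of cells with *Cdh5* was -2.24 points at 150 transcripts, -2.99 without thinning, -1.69 in sections numbered 1 and -2.14 in those numbered 2. That of *Pecam1* was -1.02, -1.22 and -0.431 (numbered 2), and that of *Vwf* -0.715 at 50 transcripts, where it passed the exact permutation test (adjusted p = 0.020). The co-detection difference of *Cdh5* and *Pecam1* was 0.17 with 5 bins and 0.35 in thinned cells, that of *Cdh5* and *Vwf* 0.018 in sections numbered 2, and that of *Pecam1* and *Vwf* -0.31 in thinned cells. Correlations from Pearson residuals were 0.204, 0.157 and 0.0821 for the 3 pairs. With the gate on 12 genes the log2 ratios of the Knockout and Wildtype embryo were 1.44 and 0.96 for *Cdh5*, 0.97 and 0.73 for *Pecam1*, and 0.61 and 0.58 for *Vwf*.

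With 1 section left out, log2 differences ran from 0.061 to 0.17 (*Cdh5*), 0.094 to 0.17 (*Pecam1*) and -0.11 to -0.032 (*Vwf*) in all cells, and from 0.28 to 0.43, 0.036 to 0.17 and -0.55 to -0.36 in endothelial-like cells. Genes called numbered 86 to 113 higher and 18 to 48 lower (48 without Knockout replicate 13), and 70 to 84 and 18 to 41 in endothelial-like cells (18 without Knockout replicate 9). Differences in shares ran from -2.07 to -1.37, -1.07 to -0.781 and -0.966 to -0.581 points, and in co-detection from 0.12 to 0.18, -0.031 to 0.016 and 0.079 to 0.13. No paired analysis was possible because the labels number the sections once over both embryos, and the replicate numbers used here follow that order and pair no sections. Few transcripts per cell limit co-detection and correlations.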
